A study of Mus musculus with 11 samples.

Results

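The transcripts of 9 transcription factors that maintain the hepatocyte state were followed in hepatocytes with and without Xbp1: Hnf4a, Foxa1, Foxa2, Foxa3, Cebpa, Cebpb, Onecut1, Onecut2 and Prox1. They were chosen by name, and their Ensembl identifiers were looked up in the GENCODE M21 annotation. All 9 were found among the 54232 genes of the count tables, and all 9 were among the 13303 genes that passed a filter on low counts.

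Hepatocyte identity rests on a small network of DNA-binding proteins that bind together at the enhancers of liver genes and at one another's promoters. HNF4A is a nuclear receptor that most secreted-protein and metabolic genes of the liver depend on, the FOXA proteins are forkhead factors that open closed chromatin, and C/EBPα and C/EBPβ are basic leucine zipper proteins of the differentiated and of the stressed or regenerating hepatocyte. The ONECUT proteins (also called HNF6 and OC-2) and PROX1 act in liver development and remain expressed in the adult cell. XBP1 is a transcription factor of the unfolded protein response, and its active form is made after IRE1α splices its mRNA.

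Hepatocytes were isolated from adult male mice on the C57BL/6 background, all of them carrying floxed Xbp1 alleles. In Xbp1 LKO mice an albumin promoter-Cre deletes the gene in hepatocytes, and Xbp1 fl/fl mice are the controls. Mice ate chow or the HFS diet, a western diet rich in fat given with fructose and glucose in the drinking water, for up to 6 weeks. There were 3 libraries of chow-fed Xbp1 fl/fl mice, 2 of chow-fed Xbp1 LKO mice, and 3 of each genotype on the HFS diet. Each chow-fed library stands for 1 mouse, whereas 2 mice were pooled for each HFS-fed library.

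Total counts ran from 19191032 to 23888401 per library. Expression is given as CPM, read counts scaled to a common library size by edgeR's TMM method. Xbp1 was between 95.7 and 135 CPM in the 5 Xbp1 LKO libraries and between 194 and 301 CPM in the 6 Xbp1 fl/fl libraries, with no overlap; the count covers the whole gene and does not single out the deleted exon. All 10 hepatocyte markers checked were expressed, and their summed level was lower in every Xbp1 LKO library (44132 to 88431 CPM) than in every Xbp1 fl/fl library (125675 to 171745 CPM). Alb, among these markers, stood at 14021 to 51478 CPM in Xbp1 LKO and 64343 to 119367 CPM in Xbp1 fl/fl libraries. The chow-fed Xbp1 LKO libraries differed from each other: Alb took 3.72% of the counts in the first and 1.67% in the second, and Ddit3 stood at 23.6 and 132 CPM. In RNA from a cell preparation, fewer cells of a type and less RNA per cell cannot be told apart.

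The order of the 9 transcripts is taken from levels per length, in RPKM (CPM per kilobase of merged exons). Cebpa and Hnf4a stood far above the rest, with means over the 11 libraries of 198 ± 17.0 and 170.1 ± 12.9 RPKM (SD, n = 11). Cebpa ranked first and Hnf4a second in each of the 11 libraries, although their ranges, 173.9 to 234 and 143 to 188 RPKM, overlapped. Cebpb (33.8 ± 10.6 RPKM) and Foxa3 (28.1 ± 5.03 RPKM) followed, and these neighbours overlapped. Prox1 was at 19.4 ± 2.60 RPKM and Foxa2 at 13.3 ± 2.52 RPKM, again with overlapping ranges. Foxa1 (6.78 ± 1.06 RPKM), Onecut2 (6.47 ± 0.940 RPKM) and Onecut1 (6.13 ± 3.73 RPKM) closed the order and exchanged places between libraries.

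**Figure D1:**
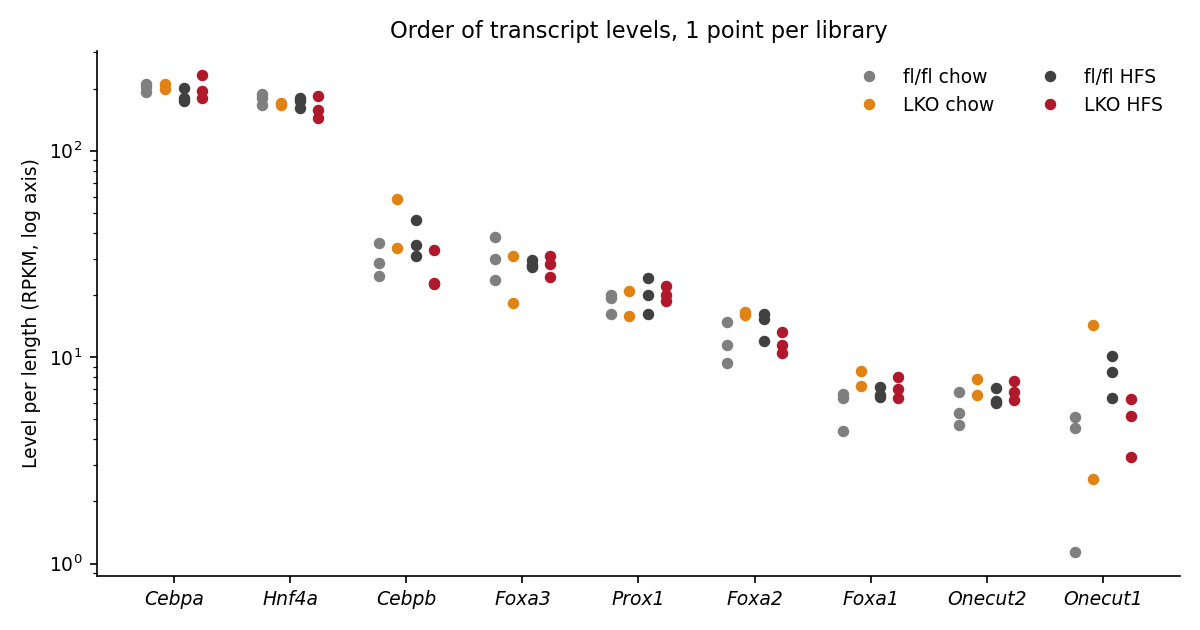
Level per length of the 9 transcripts in RPKM on a log axis, 1 point per library, with the 4 groups side by side in different colours. Cebpa and Hnf4a lie above 100 RPKM in every library, and the points of Onecut1 are the most widely scattered, from 1.14 to 14.3 RPKM.

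None of the 9 transcripts differed between genotypes or diets after adjustment over all genes. With the quasi-likelihood test of edgeR, adjusted by Benjamini-Hochberg at 0.05, 0 of 9 were called in each of the 7 comparisons: genotype on chow, genotype on the HFS diet, diet in Xbp1 fl/fl, diet in Xbp1 LKO, genotype averaged over the diets, diet averaged over the genotypes, and the difference between the diets in the genotype effect (the interaction). The shares of all tested genes called in the same order were 4.75%, 4.08%, 0.428%, 0.0601%, 11.9%, 1.1% and 0%. At an unadjusted p under 0.05 the test counted 3, 1, 0, 2, 1, 0 and 3 of the 9, beside 19.3%, 17.5%, 8.95%, 12.7%, 25.6%, 14.8% and 6.13% of all tested genes. DESeq2 and limma-voom also called 0 of the 9 in every comparison, and over all genes edgeR called 0 interactions with 816 at an unadjusted p under 0.05, where DESeq2 called 31 and limma-voom 0.

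The median log2 difference of the 9 was 0.36 on chow and -0.02 on the HFS diet for Xbp1 LKO against Xbp1 fl/fl, and 0.07 when averaged over the diets, beside a median near 0 for all genes (0.00, 0.01 and 0.01). For HFS against chow it was 0.19 in Xbp1 fl/fl and -0.07 in Xbp1 LKO. With 3 libraries or 2 in a group, non-overlapping groups are frequent among all genes. The libraries of the genotypes did not overlap for 2 of the 9 on chow and 1 of the 9 on the HFS diet, where 31.3% and 26.1% of all genes were separated. The libraries of the diets did not overlap for 1 of the 9 in Xbp1 fl/fl and 2 of the 9 in Xbp1 LKO, where the shares of all genes were 13.7% and 31.1%.

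**Figure D2:**
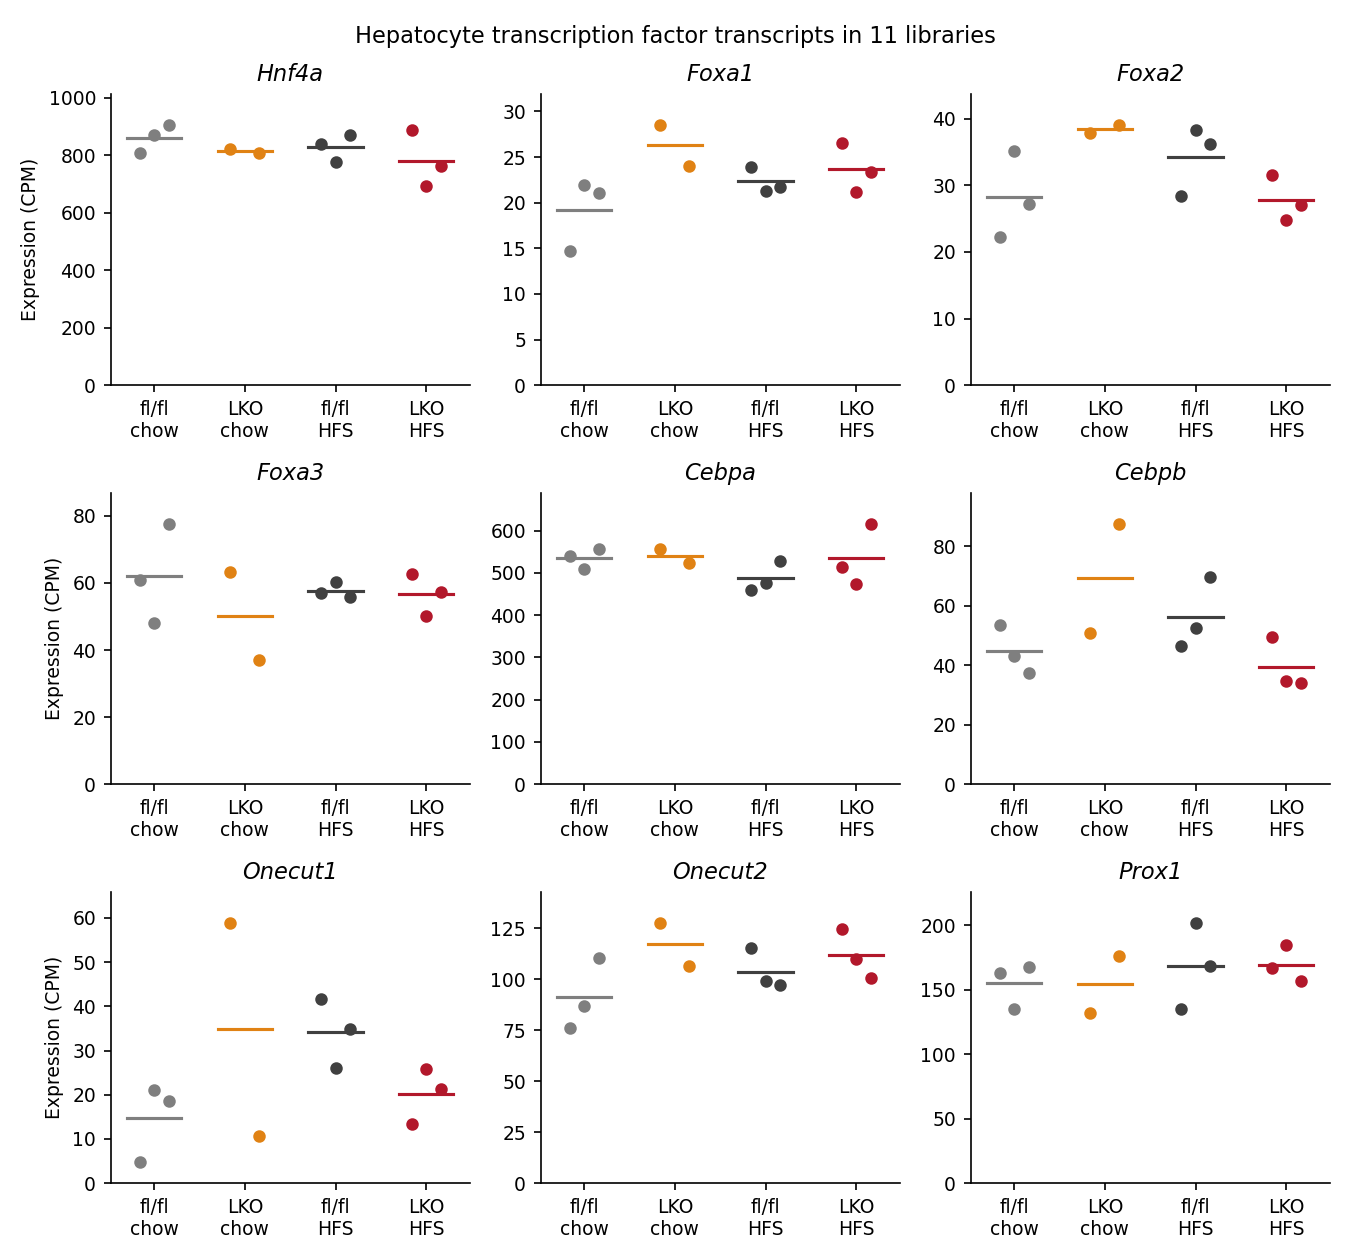
Expression in CPM of each transcript, 1 panel per gene with an axis from 0, 1 point per library and a line at the mean of each of the 4 groups. Hnf4a runs from 693 to 905 CPM and Cebpa from 458 to 616 CPM, while Onecut1 runs from 4.69 to 58.9 CPM and Cebpb is highest in the second chow-fed Xbp1 LKO library at 87.6 CPM.

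Hnf4a (ENSMUSG00000017950, chr2:163506808-163572910 of GRCm38, plus strand) encodes the nuclear receptor HNF4A. It is transcribed from 2 promoters that give proteins with different amino ends, and a count per gene does not separate them. Both promoters are shown because the one result near these genes that passed the test, that of the antisense transcript Hnf4aos, concerns a transcript whose start lies between them. The windows are the 250 bases before a RefSeq start on GRCm38.p6, 5′ to 3′ in the direction of transcription, and capitals mark matches to the short binding words described after them.
Hnf4a, upstream start, chr2:163506607-163506856: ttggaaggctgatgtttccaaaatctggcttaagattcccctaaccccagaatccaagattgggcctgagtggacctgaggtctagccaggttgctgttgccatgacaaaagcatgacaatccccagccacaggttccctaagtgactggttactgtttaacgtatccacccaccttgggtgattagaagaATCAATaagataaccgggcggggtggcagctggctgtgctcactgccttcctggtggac
Hnf4a, downstream start, chr2:163546905-163547154: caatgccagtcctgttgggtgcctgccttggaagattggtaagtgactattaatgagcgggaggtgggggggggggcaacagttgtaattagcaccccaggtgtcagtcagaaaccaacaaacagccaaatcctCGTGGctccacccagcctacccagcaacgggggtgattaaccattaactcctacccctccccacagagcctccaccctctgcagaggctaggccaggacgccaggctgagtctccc
Hnf4aos, minus strand, chr2:163541722-163541971: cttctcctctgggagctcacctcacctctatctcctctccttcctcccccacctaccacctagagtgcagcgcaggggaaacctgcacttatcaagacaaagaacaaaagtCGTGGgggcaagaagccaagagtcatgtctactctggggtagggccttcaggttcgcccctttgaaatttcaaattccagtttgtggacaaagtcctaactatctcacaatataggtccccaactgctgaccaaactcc
Foxa1, minus strand, chr12:57546112-57546361: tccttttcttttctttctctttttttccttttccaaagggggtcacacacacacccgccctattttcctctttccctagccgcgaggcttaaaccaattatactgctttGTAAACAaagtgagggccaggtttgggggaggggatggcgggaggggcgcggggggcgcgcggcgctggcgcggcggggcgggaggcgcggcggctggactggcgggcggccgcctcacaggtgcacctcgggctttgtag
Foxa1 is added because its window alone among the 12 windows of 8 members holds a forkhead word.

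The words were TGTTTAC for FOXA, ATTGAT or ATCGAT for ONECUT, TTGCNNAA for C/EBP, CAAAGTCCA for HNF4A, and TGACGTG and CCACG for XBP1, each on both strands; the words for XBP1 can share bases. The upstream Hnf4a window holds the ONECUT word (reverse complement, ATCAAT) 59 bases before the start, and 8.399% of all 32851 RefSeq promoter windows (250 bases before to 50 after a start) hold one. A Foxa2 window also holds the ONECUT word. The Foxa1 window holds the FOXA word 141 bases before its start, as do 3.65% of all windows. CCACG, which 32.8% of all windows hold, lies 116 bases before the downstream Hnf4a start and 139 bases before the Hnf4aos start, both times as the reverse complement. It is not particular to this locus: 7 of the 12 windows of the members hold CCACG, also at Cebpa, Cebpb, Foxa2, Foxa3 and Prox1. TGACGTG, CAAAGTCCA and TTGCNNAA were in none of the 12 windows; in all windows the shares were 2.01%, 0.475% and 10.8%. A match gives letters in a window and not a bound site.

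Hnf4a varied little. It stood at 807, 868 and 905 CPM in chow-fed Xbp1 fl/fl mice, 821 and 808 CPM in chow-fed Xbp1 LKO libraries, 839, 775 and 869 CPM in HFS-fed Xbp1 fl/fl libraries and 887, 693 and 760 CPM in HFS-fed Xbp1 LKO libraries. The groups overlapped in all 4 comparisons, and the highest library was 1.31 times the lowest. Averaged over the diets, the level in Xbp1 LKO hepatocytes was 0.945 times that in Xbp1 fl/fl (95% interval 0.817 to 1.09, edgeR adjusted p = 0.66). On the HFS diet the ratio was 0.943 (interval 0.776 to 1.14), and on chow 0.947 (interval 0.762 to 1.18). Its spread within groups, an SD of 0.12 on the log2 scale, was larger than that of only 10.3% of 117 genes of like level.

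The antisense transcript at the same locus was lower without Xbp1. Hnf4aos (ENSMUSG00000046840, chr2:163493807-163541720, minus strand) starts between the Hnf4a promoters, 5435 bases before the downstream start, and overlaps the Hnf4a gene over 34913 bases with no shared exon sequence. In chow-fed libraries it stood at 8.83, 9.998 and 6.92 CPM in Xbp1 fl/fl and at 4.86 and 2.62 CPM in Xbp1 LKO. In HFS-fed libraries the values were 5.86, 4.89 and 6.56 CPM in Xbp1 fl/fl and 2.28, 2.60 and 2.07 CPM in Xbp1 LKO. All 5 Xbp1 LKO libraries were below all 6 Xbp1 fl/fl libraries, by a narrow margin between 4.86 and 4.89 CPM; 7.53% of all tested genes separated the genotypes in this way. The counts behind these values were 54 to 173 per library.

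The log2 fold change of Hnf4aos was -1.19 (SE 0.28, adjusted p = 0.032) on chow, -1.31 (SE 0.25, adjusted p = 0.014) on the HFS diet and -1.25 (SE 0.19, adjusted p = 0.0014) averaged over the diets, by the same edgeR test. The averaged level was 0.419 times that of Xbp1 fl/fl (interval 0.316 to 0.556). In the diet comparisons, all HFS libraries lay below all chow libraries of the same genotype, in Xbp1 LKO by a narrow margin (2.60 and 2.62 CPM). The shares of all tested genes that separated the diets were 13.7% in Xbp1 fl/fl and 31.1% in Xbp1 LKO. The log2 fold changes for diet were -0.57 in Xbp1 fl/fl (adjusted p = 0.51) and -0.69 in Xbp1 LKO (adjusted p = 0.33), neither called by edgeR. The averaged genotype call held with each of the 11 libraries left out in turn (log2 fold change from -1.51 to -1.07, adjusted p at most 0.0062). The call on chow was lost without the second chow-fed Xbp1 LKO library (-0.82, adjusted p = 0.28) and without the first or the second chow-fed Xbp1 fl/fl library. It was also lost with the replicate number as a block (-1.25, adjusted p = 0.057). The call on the HFS diet was lost without the third HFS-fed Xbp1 fl/fl library (-1.21, adjusted p = 0.060) and without the third HFS-fed Xbp1 LKO library (-1.24, adjusted p = 0.061). The kit marks strand, and whether the counting used it is not given in the sources used here, so reads of Hnf4aos and of unspliced Hnf4a RNA may not be fully separated. Hnf4aos was named because it overlaps one of the 9 genes.

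**Figure D3:**
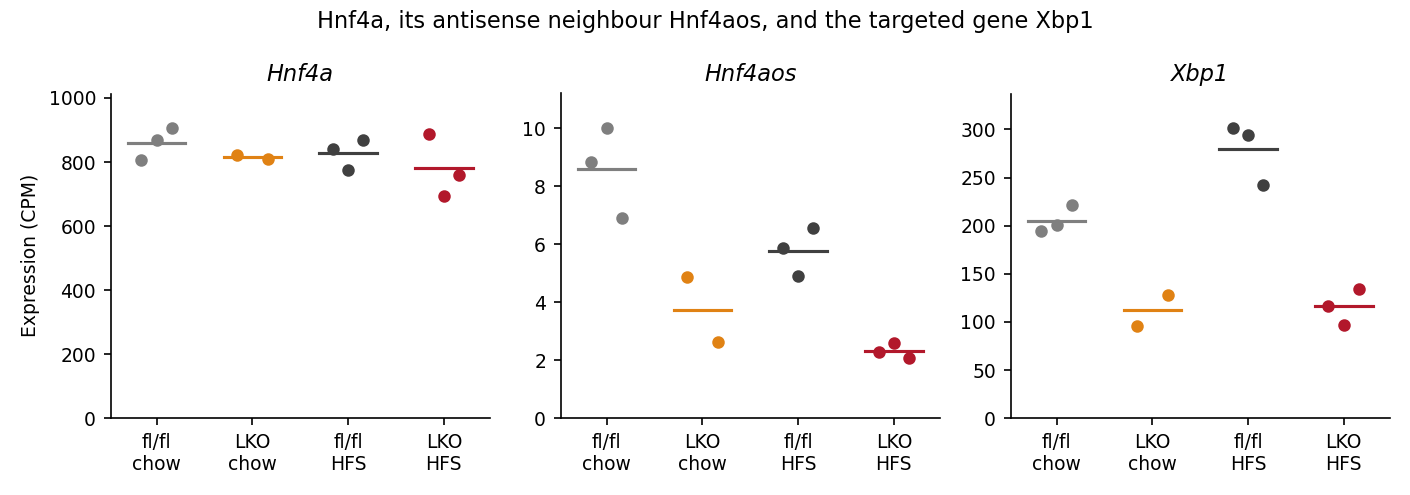
Expression in CPM of Hnf4a, of the antisense transcript Hnf4aos and of Xbp1, 1 point per library with a line at each group mean. Hnf4a overlaps between groups, while Hnf4aos and Xbp1 lie lower in each Xbp1 LKO group than in the Xbp1 fl/fl group of the same diet.

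The FOXA genes encode 3 forkhead factors that bind the same DNA word. In chow-fed hepatocytes Foxa1 and Foxa2 were higher in both Xbp1 LKO libraries than in the 3 Xbp1 fl/fl libraries, by differences that did not pass the adjusted test, and Foxa3 was not. On the HFS diet the genotypes overlapped for all 3. Foxa1 (ENSMUSG00000035451, chr12:57540628-57546916, minus strand) stood at 14.7, 22.0 and 21.01 CPM in chow-fed Xbp1 fl/fl mice and at 28.5 and 24.03 CPM in chow-fed Xbp1 LKO libraries. The HFS-fed libraries had 23.96, 21.3 and 21.7 CPM in Xbp1 fl/fl and 26.5, 21.1 and 23.4 CPM in Xbp1 LKO. The fold of Xbp1 LKO over Xbp1 fl/fl was 1.37 on chow (interval 1.06 to 1.77, edgeR adjusted p = 0.16), 1.06 on the HFS diet (interval 0.842 to 1.33, adjusted p = 0.85) and 1.204 averaged over the diets (interval 1.01 to 1.43, adjusted p = 0.16). The averaged log2 difference was positive with each library left out, from 0.19 to 0.33. On chow alone it was 0.32 without the first Xbp1 LKO library and 0.57 without the second.

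Foxa2 (ENSMUSG00000037025, chr2:148042877-148046969, minus strand), the family member best known for fasting metabolism and bile acid handling, went in opposite directions on the diets. It stood at 22.2, 35.2 and 27.2 CPM in chow-fed Xbp1 fl/fl mice and at 37.8 and 39.1 CPM in chow-fed Xbp1 LKO libraries. On the HFS diet it stood at 28.3, 38.3 and 36.2 CPM in Xbp1 fl/fl and at 31.5, 24.8 and 27.1 CPM in Xbp1 LKO. The genotypes did not overlap on chow and overlapped on the HFS diet. The log2 difference of Xbp1 LKO against Xbp1 fl/fl was 0.45 on chow (adjusted p = 0.21) and -0.30 on the HFS diet (adjusted p = 0.40), and the interaction was -0.75 (interval -1.29 to -0.20, unadjusted p = 0.012, adjusted p = 0.71, edgeR). Within Xbp1 LKO hepatocytes the HFS libraries were all below the chow libraries (log2 difference -0.47, adjusted p = 0.33). None of these values passed the threshold. The chow difference was 0.47 and 0.42, and the interaction -0.78 and -0.72, without the first or the second chow-fed Xbp1 LKO library.

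Foxa3 (ENSMUSG00000040891, chr7:19013284-19023538, minus strand), the most abundant of the 3 per length, stood at 60.8, 48.2 and 77.7 CPM in chow-fed Xbp1 fl/fl mice and at 63.3 and 37.1 CPM in chow-fed Xbp1 LKO libraries. On the HFS diet the values were 56.9, 60.4 and 55.7 CPM in Xbp1 fl/fl and 62.7, 50.02 and 57.4 CPM in Xbp1 LKO. The groups overlapped on both diets. The fold of Xbp1 LKO over Xbp1 fl/fl was 0.806 on chow (interval 0.572 to 1.14) and 0.983 on the HFS diet (interval 0.725 to 1.33), with edgeR adjusted p of 0.50 and 0.98. On chow the log2 difference was -0.75 without the first Xbp1 LKO library and 0.02 without the second (adjusted p = 0.099 and 0.99), so the value turned on which of them was kept. The interaction of Foxa3 went in the same way from 0.72 to -0.05.

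Cebpa (ENSMUSG00000034957, chr7:35119293-35121928, plus strand) encodes C/EBPα, which holds hepatocytes differentiated and out of the cell cycle. It stood at 539, 510 and 556 CPM in chow-fed Xbp1 fl/fl mice, 555 and 523 CPM in chow-fed Xbp1 LKO libraries, 458, 476 and 528 CPM in HFS-fed Xbp1 fl/fl libraries, and 514, 475 and 616 CPM in HFS-fed Xbp1 LKO libraries. All groups overlapped. The averaged fold of Xbp1 LKO over Xbp1 fl/fl was 1.05 (interval 0.909 to 1.22, edgeR adjusted p = 0.70).

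Cebpb (ENSMUSG00000056501, chr2:167688915-167690418, plus strand) encodes C/EBPβ, which rises in hepatocytes with inflammation, partial hepatectomy and endoplasmic reticulum stress. In chow-fed libraries it stood at 53.5, 43.1 and 37.4 CPM in Xbp1 fl/fl and at 50.8 and 87.6 CPM in Xbp1 LKO, and the groups overlapped. In HFS-fed libraries it stood at 46.6, 52.5 and 69.8 CPM in Xbp1 fl/fl and at 49.6, 34.6 and 34.2 CPM in Xbp1 LKO, again with overlap. The HFS-fed Xbp1 LKO libraries lay below the chow-fed ones by a narrow margin (49.6 and 50.8 CPM). Of all tested genes, 31.1% separated the diets in Xbp1 LKO. The log2 difference of Cebpb was -0.81 (interval -1.37 to -0.25, unadjusted p = 0.0085, edgeR adjusted p = 0.25). This was the smallest p of the 9 genes in a comparison of 2 groups.

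The genotype difference of Cebpb was 0.63 on the log2 scale on chow and -0.51 on the HFS diet, and the interaction was -1.14 (interval -1.90 to -0.39, unadjusted p = 0.0067, adjusted p = 0.68, edgeR). The size of the chow difference, the diet difference in Xbp1 LKO and the interaction turned on which chow-fed Xbp1 LKO library was kept. Without the second they were 0.18, -0.36 and -0.70, and without the first 0.97, -1.15 and -1.49. The HFS difference stayed between -0.71 and -0.33 with each library left out. Immediate early genes, which respond to cell isolation, had a summed level of 811 and 815 CPM in chow-fed Xbp1 LKO mice, 595 to 779 CPM in chow-fed Xbp1 fl/fl, 485 to 888 CPM in HFS-fed Xbp1 fl/fl and 505 to 682 CPM in HFS-fed Xbp1 LKO libraries. Their part in the level of Cebpb was not tested.

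Onecut1 (ENSMUSG00000043013, chr9:74861921-74891781, plus strand), the gene of HNF6, varied most. It stood at 4.69, 21.04 and 18.7 CPM in chow-fed Xbp1 fl/fl mice and at 58.9 and 10.6 CPM in chow-fed Xbp1 LKO libraries. The HFS-fed libraries had 41.7, 26.2 and 34.97 CPM in Xbp1 fl/fl and 13.4, 25.9 and 21.2 CPM in Xbp1 LKO. The highest and the lowest of the 11 libraries differed 12.6-fold and were both from chow-fed mice, and the chow-fed Xbp1 LKO libraries differed 5.55-fold from each other. The SD within groups was 0.97 on the log2 scale, larger than in 99.5% of 2133 genes of like level, whose median SD was 0.16. The counts were 85 to 1381 per library.

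The groups did not overlap for Onecut1 in 2 comparisons, HFS against chow in Xbp1 fl/fl (higher on HFS) and Xbp1 LKO against Xbp1 fl/fl on the HFS diet (lower in Xbp1 LKO, with 25.9 and 26.2 CPM as the nearest values). The log2 differences were 1.21 (interval -0.07 to 2.49, adjusted p = 0.59) and -0.76 (interval -2.01 to 0.49, adjusted p = 0.57) by edgeR. On chow the genotype difference was 1.23 (interval -0.16 to 2.62, adjusted p = 0.32), and it turned to -0.48 without the first chow-fed Xbp1 LKO library and to 1.99 without the second. The interaction of -1.99 (interval -3.87 to -0.12, adjusted p = 0.79) became -0.29 without that first library. Without a filter on low counts edgeR called Onecut1 in all of these comparisons, with differences of 1.21, -0.75, 1.26 and -2.01 in the order given here. In the same order it then called 1.92%, 5.53%, 5.79% and 1.03% of 26016 genes.

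The genes whose CPM followed Onecut1 most closely over the 11 libraries were Alas1, the first enzyme of heme synthesis, Aacs, which activates acetoacetate, and Gbp11, a guanylate-binding protein. Likeness was the root mean square difference of centred log2 profiles, 0.51, 0.58 and 0.59 over 11129 genes compared, with a median of 0.98 over those genes. Onecut1 was chosen for this after its values were seen. Alas1 ran from 388 CPM in chow-fed Xbp1 fl/fl library 1, where Onecut1 was lowest, to 1276 CPM in the first HFS-fed Xbp1 fl/fl library.

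Onecut2 (ENSMUSG00000045991, on chromosome 18) was steadier. It stood at 76.2, 87.2 and 111 CPM in chow-fed Xbp1 fl/fl mice, 128 and 107 CPM in chow-fed Xbp1 LKO libraries, 115, 99.1 and 97.3 CPM in HFS-fed Xbp1 fl/fl libraries and 125, 110 and 101 CPM in HFS-fed Xbp1 LKO libraries. All 5 Xbp1 LKO libraries were above 100 CPM, as were 2 of the 6 Xbp1 fl/fl libraries. The averaged fold was 1.18 (interval 0.992 to 1.39, edgeR adjusted p = 0.22), and on chow 1.28 (interval 0.997 to 1.65, adjusted p = 0.27). The averaged log2 difference stayed between 0.16 and 0.31 with each library left out, and the chow difference was 0.22 without the first Xbp1 LKO library and 0.48 without the second.

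Prox1 (ENSMUSG00000010175, chr1:190118035-190170714, minus strand), a homeobox protein that restrains several nuclear receptors in hepatocytes, was called in no comparison. It stood at 163, 135 and 167 CPM in chow-fed Xbp1 fl/fl mice, 132 and 176 CPM in chow-fed Xbp1 LKO libraries, 135, 202 and 169 CPM in HFS-fed Xbp1 fl/fl libraries and 167, 185 and 157 CPM in HFS-fed Xbp1 LKO libraries. All groups overlapped. The averaged fold of Xbp1 LKO over Xbp1 fl/fl was 0.999 (interval 0.828 to 1.21, edgeR adjusted p = 1.00). The sign of its chow difference changed with the library left out, 0.18 without the first chow-fed Xbp1 LKO library and -0.23 without the second.

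**Figure D4:**
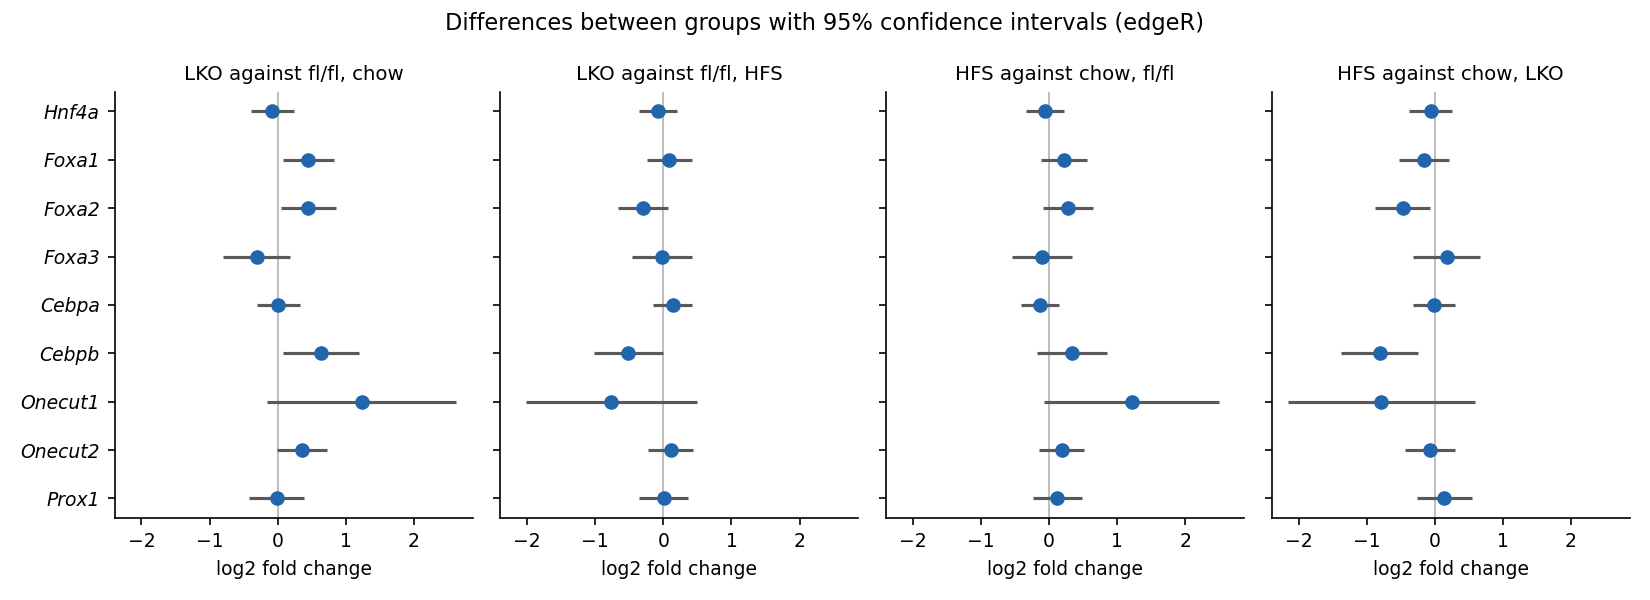
Log2 fold changes of the 9 transcripts with 95% confidence intervals from edgeR, in 4 panels for the genotype difference on each diet and the diet difference in each genotype. The intervals of Onecut1 are the widest, reaching from -0.16 to 2.62 on chow, while those of Hnf4a and Cebpa stay within 0.42 of 0 on either side in all panels.

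Ratios of related members within a library do not depend on how libraries are scaled. By counts, the ratio of Cebpb to Cebpa was 0.0837 ± 0.0160 (SD, n = 3) in chow-fed Xbp1 fl/fl mice, 0.0915 and 0.168 in chow-fed Xbp1 LKO libraries, 0.115 ± 0.0157 (SD, n = 3) in HFS-fed Xbp1 fl/fl and 0.0750 ± 0.0206 (SD, n = 3) in HFS-fed Xbp1 LKO libraries. The mean log2 difference between genotypes was -0.03, and a two-sided exact permutation test that exchanged genotypes within each diet gave p = 0.93. The differences for Foxa1 to Foxa2, Foxa3 to Foxa2 and Onecut2 to Onecut1 were 0.19, -0.27 and 0.12, with exact p of 0.20, 0.39 and 0.86. After Benjamini-Hochberg adjustment over the 4 ratios, the permutation p were 0.77 for both FOXA ratios and 0.93 for the other two. The test had 200 arrangements of the genotypes, which limits how small its p can be. It averaged the diets, so opposite genotype differences on chow and HFS cancel in it, as in the means of Cebpb to Cebpa. Foxa3 to Foxa2 had means of 2.32 (Xbp1 fl/fl) and 1.31 (Xbp1 LKO) on chow, and 1.71 and 2.04 on HFS. For Onecut2 to Onecut1 the means were 8.77 and 6.10 on chow, and 3.11 and 6.09 on HFS. Genotype differences of the ratios within a diet were not tested.

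Calls for the 9 factors depended on the scaling of the libraries. With library totals in place of TMM factors, the median of all genes moved to 0.33 on chow and 0.30 in the averaged genotype comparison. Under that scaling 22.6% of all tested genes were called on chow and 43.6% in the averaged comparison, against 4.75% and 11.9% with TMM. Of the 9 factors, edgeR then called Foxa1 (log2 difference 0.78), Foxa2 (0.78), Onecut2 (0.68) and Cebpb (0.98) higher on chow, which is 0.45, 0.45, 0.35 and 0.65 above the median of all genes. It called Cebpa, Foxa1, Foxa2 and Onecut2 higher in the averaged comparison, 0.06, 0.25, 0.06 and 0.22 above that median.

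Few of the other factors of the liver network were called. Of 30 further transcription factors of hepatocytes, 28 were tested (all but Hnf4g and Onecut3), and 2 were higher in Xbp1 LKO hepatocytes averaged over the diets and 0 lower. The median log2 difference was -0.02, beside 0.01 for all genes, and 11.9% of all genes were called in this comparison. Tbx3, a T-box repressor, rose (log2 fold change 1.26, SE 0.23, adjusted p = 0.0047, edgeR). By diet it was called on chow (edgeR adjusted p = 0.044) and not on the HFS diet (adjusted p = 0.068). It stood at 34.8, 15.1 and 33.3 CPM in chow-fed Xbp1 fl/fl, 53.5 and 91.0 CPM in chow-fed Xbp1 LKO, 37.8, 35.3 and 38.3 CPM in HFS-fed Xbp1 fl/fl and 54.1, 87.4 and 105 CPM in HFS-fed Xbp1 LKO libraries. The Xbp1 LKO libraries were all above the Xbp1 fl/fl libraries.

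Atf5, a basic leucine zipper factor of hepatocytes and of stress responses, rose by less averaged over the diets (log2 fold change 0.87, SE 0.24, adjusted p = 0.038). It was called on neither diet alone (edgeR adjusted p = 0.14 on chow and 0.29 on the HFS diet). Its level in the second chow-fed Xbp1 LKO library, 836 CPM, was well above the 268 CPM of the first, which lay among the 248.5 to 314 CPM of chow-fed Xbp1 fl/fl libraries. Without that second library edgeR called 1 of the 28 genes, as it did without any of 6 other libraries, and 4 without the first. Klf15, a Krüppel-like factor of fasting metabolism, and Creb3l3, a liver factor anchored in the endoplasmic reticulum, were next by p and had log2 differences of -0.33 (adjusted p = 0.073) and -0.22 (adjusted p = 0.16).

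Among 9 relatives and regulators of the C/EBP proteins, 2 were higher and 0 lower in the same averaged comparison. Ddit3, which encodes the stress-induced C/EBP partner CHOP, rose most (log2 fold change 3.13, SE 0.45, adjusted p = 0.0012, edgeR). It stood at 4.52, 5.90 and 6.67 CPM in chow-fed Xbp1 fl/fl, 23.6 and 132 CPM in chow-fed Xbp1 LKO, 5.10, 2.95 and 4.996 CPM in HFS-fed Xbp1 fl/fl and 15.8, 13.5 and 44.5 CPM in HFS-fed Xbp1 LKO libraries. Trib3, a pseudokinase induced with it, rose too (log2 fold change 1.69, SE 0.32, adjusted p = 0.0054). Ddit3 was called on each diet alone, and Trib3 on chow but not on the HFS diet (edgeR adjusted p = 0.17). Cebpe, known from granulocytes, was called on the HFS diet, at 1.71, 2.70 and 4.80 CPM in Xbp1 fl/fl and 14.6, 11.1 and 13.6 CPM in Xbp1 LKO libraries (log2 fold change 2.09, adjusted p = 0.0093). On chow it stood at 10.3, 12.9 and 5.43 CPM in Xbp1 fl/fl and 7.21 and 6.60 CPM in Xbp1 LKO libraries. It was not called there (log2 difference -0.47, edgeR adjusted p = 0.56). Its log2 difference of HFS against chow was -1.63 in Xbp1 fl/fl (adjusted p = 0.10) and 0.92 in Xbp1 LKO (adjusted p = 0.35). The interaction of Cebpe was 2.56 (adjusted p = 0.60), and Cebpg had an averaged difference of 0.43 (adjusted p = 0.088).

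Several genes that the 9 factors are known to drive were lower without Xbp1, while the factors themselves were not called. Of 37 such target genes, mostly secreted proteins and metabolic enzymes, 14 were lower and 0 higher in Xbp1 LKO hepatocytes averaged over the diets. In this comparison 11.9% of all tested genes were called. The list was chosen with earlier results of these data known, so its counts are a description and not an independent test. Of the 37, 33 had a negative log2 difference. The median log2 difference of the 37 was -0.54, beside 0.07 for the 9 factors and 0.01 for all genes. F7 (coagulation factor VII) had a log2 fold change of -1.26 (SE 0.14, adjusted p = 2.5e-04), Apoa1 (apolipoprotein A-I) of -1.33 (SE 0.21, adjusted p = 0.0023), Alb (albumin) of -1.501 (SE 0.25, adjusted p = 0.0026) and Serpina1a (an α1-antitrypsin) of -0.80 (SE 0.12, adjusted p = 0.0019) by edgeR. F7 stood at 92.3 to 137 CPM in chow-fed and 127 to 163 CPM in HFS-fed Xbp1 fl/fl libraries, against 64.5 and 47.1 CPM in chow-fed and 47.4 to 59.2 CPM in HFS-fed Xbp1 LKO libraries. The Serpina1 genes are near-identical copies, and their counts may be split between them. The count of 14 became 8 without the second chow-fed Xbp1 LKO library and 9 without either the second chow-fed Xbp1 fl/fl or the second HFS-fed Xbp1 LKO library. By diet, 6 of the 37 were lower on chow and 4 on the HFS diet, where 4.75% and 4.08% of all tested genes were called. F7 was called on both diets, Alb and Serpina1a only on chow, and Apoa1 only on the HFS diet. Of the 37, 0 were called for diet within either genotype. With diet averaged over the genotypes, 1 of the 37 was called higher on HFS, where 1.1% of all tested genes were called.

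**Figure D5:**
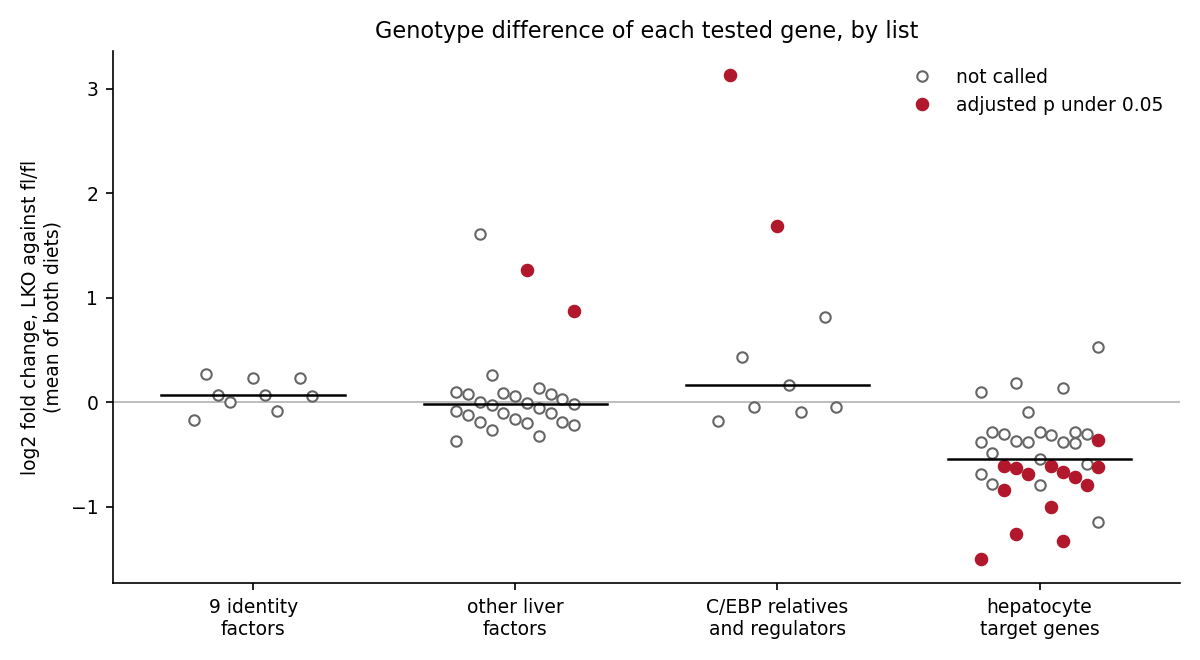
Log2 fold change of Xbp1 LKO against Xbp1 fl/fl, averaged over the diets, for each tested gene of 4 lists, 1 point per gene; filled points have an adjusted p under 0.05 and lines are medians. The 9 factors lie between -0.17 and 0.27, and 14 filled points of the target genes lie below 0.

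Markers of other liver cells moved with the groups. In the averaged genotype comparison, where 11.9% of all tested genes were called, 3 of 12 endothelial and 2 of 4 tested cholangiocyte markers were lower. Of the other lists, 0 of 15 macrophage, 0 of 10 stellate and 0 of 4 neutrophil markers were called. In the same comparison 5 of the 10 hepatocyte markers were lower and 3 of 16 immediate early genes higher. These 5 (Alb, Apoa1, Ttr, Cps1 and Serpina1a) were also among the 14 target genes called lower, so the counts overlap. Summed endothelial markers were at 54.5 to 130 CPM in chow-fed Xbp1 fl/fl, 32.6 and 41.9 CPM in chow-fed Xbp1 LKO, 99.2 to 164 CPM in HFS-fed Xbp1 fl/fl and 84.3 to 133 CPM in HFS-fed Xbp1 LKO libraries. The highest summed level of the cholangiocyte list in any library was 33.0 CPM, with 6 of 10 markers under 1 CPM in all libraries. For macrophage and stellate markers 0 were called for genotype on either diet or for diet within either genotype. With the diets compared over both genotypes, 2 of 10 stellate, 1 of 12 endothelial and 0 of 15 macrophage markers were called higher on HFS. In that comparison 1.1% of all tested genes were called. Of 15 macrophage markers, 13 had a negative genotype difference on chow (median log2 difference -0.47) and 15 a positive one on the HFS diet (median 0.64). The macrophage sums were 98.7, 23.2 and 23.3 CPM in chow-fed Xbp1 fl/fl and 27.5 and 39.7 CPM in chow-fed Xbp1 LKO libraries. On chow, only the first Xbp1 fl/fl library was thus above the Xbp1 LKO libraries, and the others were below both. The sums were 44.7 to 64.3 CPM in HFS-fed Xbp1 fl/fl and 63.7 to 113 CPM in HFS-fed Xbp1 LKO libraries. All 10 tested stellate markers had a negative genotype difference on chow (median -1.24) and a positive one for HFS against chow in Xbp1 LKO (median 2.27). The stellate sums, in the same order of groups, were 18.4 to 61.7, 13.7 and 15.9, 32.2 to 57.9, and 37.2 to 77.0 CPM. The endothelial and stellate sums were thus lowest in the chow-fed Xbp1 LKO libraries. The cholangiocyte sum was lowest there too (5.55 and 8.45 CPM, against at least 15.9 CPM elsewhere). Foxa1, Foxa2, Onecut2, Cebpb, Onecut1 and Cebpa had their highest group means in that group, and Hnf4a, Foxa3 and Prox1 did not. For Onecut1 (34.8 against 34.3 CPM) and Cebpa (539 against 535 CPM) the next group was close. The Onecut1 mean averaged 58.9 and 10.6 CPM, and the Cebpb mean 50.8 and 87.6 CPM. The share of all genes with their highest mean in chow-fed Xbp1 LKO was not counted, so no pattern is read from these means. Neutrophil markers summed to at most 6.13 CPM in any library. The part of other cell types in the levels of the 9 factors and of Hnf4aos was not tested.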

How the data were processed

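RNA of isolated hepatocytes from 11 libraries was sequenced as stranded, single-end reads of 50 bases. The authors deposited whole-number counts per Ensembl gene, neither normalized nor filtered. The study's methods name kallisto and tximport for quantification, while the processing notes list cutadapt 1.13, STAR, HTSeq 0.6.1p1, DESeq2 and the build mm10; which of them made the deposited counts is not settled here. Symbols, positions and exon lengths came from GENCODE M21 (54165 of 54232 identifiers matched) and promoter windows from RefSeq on GRCm38.p6.

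Weakly counted genes were dropped with filterByExpr (minimum count 10), TMM factors were computed, and 1 quasi-likelihood model with a term for each of the 4 groups was fitted to the 11 libraries together in edgeR 4.0.16 (R 4.3.3), with Benjamini-Hochberg adjustment over 13303 genes and a threshold of 0.05. DESeq2 1.42.0 and limma-voom (limma 3.58.1) were alternatives, beside RLE factors, library totals with and without Alb, other filters, fits to the 2 groups of a comparison alone, replicate blocks and each library left out in turn. The scripts were tested on simulated counts. Exact permutation within diet (two-sided) served for the ratios.

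Groups came from the sample titles. The members, the gene lists and the tests were chosen with earlier results of these data known. Named were all 9 members, genes overlapping them, Xbp1, Alb, and the 4 genes of each further list with the smallest p in the averaged genotype comparison. A symbol with several identifiers was read from the one with the most counts. Replicates are different mice or pools. Same-numbered libraries of the groups had a median correlation of deviations of -0.05 (4 of 15 pairs over 0.1), so the numbers do not pair them. The chi-square over its degrees of freedom between replicates was 27.9 to 101.6, far above counting noise, so no counting intervals are given.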

Additional observations from a re-analysis of the deposited data

How the results depend on the processing

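Over 1296 values of the 9 members under alternatives, 1273 kept their call. A reversal was counted only where the sign changed and either fit called the gene, and there were 0. Differences that were not called did change sign, as those of Onecut1, Foxa3 and Prox1 on chow did with libraries left out. Members called went from 0 to 4 on chow and 4 averaged over the diets with library totals, where 3000 and 5802 of 13303 genes were called, and to 2 and 3 with library totals without Alb (1264 and 3976 genes). Without a filter on low counts they went to 2 for genotype on chow, 2 on the HFS diet, 1 for diet in Xbp1 fl/fl, 2 in Xbp1 LKO and 3 in the interaction (Foxa2 -0.76, Onecut1 -2.01, Cebpb -1.16), beside 1507, 1438, 499, 722 and 269 of 26016 genes. Unfiltered calls for Onecut1 had log2 differences of 1.26 for genotype on chow, -0.75 on the HFS diet, 1.21 for diet in Xbp1 fl/fl and -0.80 in Xbp1 LKO. The cause was not tested. With each library left out, 0 members were called in all 7 comparisons; a lone chow-fed Xbp1 LKO library was then assumed to vary like the other groups.

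Of the averaged lists, the 2 further liver factors became 1 with limma-voom, 11 with library totals, 6 without Alb in the totals, and 1 under either replicate block, and ranged from 1 to 4 with libraries left out. The 2 C/EBP relatives became 5 with library totals, with or without Alb, and 4 without a filter. The 14 target genes became 22 without a filter and 8 to 18 with libraries left out. The chow call of Hnf4aos was lost with only the 2 groups fitted (-1.19), with the replicate block (-1.25, or -1.18 with file-name numbers) and without 3 of the libraries (range over libraries -1.71 to -0.82); its HFS call was lost without the third library of either genotype (range -1.42 to -1.21). The replicate block changed no call of the 9 members. Ratio differences ranged from -0.25 to 0.19 for Cebpb to Cebpa, 0.11 to 0.28 for Foxa1 to Foxa2, -0.47 to -0.07 for Foxa3 to Foxa2 and -0.43 to 0.67 for Onecut2 to Onecut1 with libraries left out.

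With 2 chow-fed Xbp1 LKO mice, the 95% interval of the chow difference (log2) ran from -0.39 to 0.23 for Hnf4a and from -0.16 to 2.62 for Onecut1.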

Other observations

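The second chow-fed Xbp1 LKO library, which had the highest Cebpb and among the lowest Onecut1 and Foxa3 levels, also stood apart in clock genes, chosen after their values were seen. Arntl, the positive arm of the clock, was at 15.7 CPM there and between 0.953 and 3.76 CPM in the other 10 libraries. Dbp, a clock output factor of hepatocytes, was at 35.7 CPM there and between 85.1 and 130 CPM in the others.

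Gm45091, annotated antisense to Cebpa with overlapping exons, had an averaged log2 difference of -0.88 between genotypes (edgeR adjusted p = 0.13), and Prox1os of -0.12 (adjusted p = 0.58).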
